A study of Populus tremula x Populus alba with 10 samples.

Results

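The genes described here are the 100 whose RNA was most enriched in poplar stem nuclei that held RNA of 1 gene, PtXaAlbH.07G032900, called the anchor below. They were chosen from 31823 genes by values of the nuclei themselves. A nucleus was anchor-positive when it had at least 1 unique molecular identifier (UMI, a tag counted once per captured RNA molecule) of the anchor, among barcodes with at least 200 detected genes. For each gene, a ratio was taken as log2 of its CPM (its count scaled to a fixed library total) in anchor-positive nuclei over its CPM in the rest, with 50 CPM added to both. UMIs were pooled per treatment and the lower of the 2 treatments' ratios was kept. A gene also needed at least 30 UMIs in anchor-positive nuclei and a higher ratio for this anchor than for 6 other anchor genes. 1180 genes met these conditions, and the 100 with the highest ratios are the members. The anchor itself is not counted among them.

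The plants were wild-type hybrids of Populus tremula and Populus alba, all of INRA clone 717 1B4 and multiplied in vitro, so no group represents genetic variation between trees. All were potted in peat for 6 weeks and then kept 14 days under 1 of 2 watering regimes. Control plants had soil near field capacity, at 0.46 m3 of water per m3 of soil. Drought plants were left without water until the pots fell to 15% of field capacity, and were held there by small daily additions, with a wilting threshold of 0.10 m3 per m3. Nuclei were sequenced from stem internodes in 2 control and 2 drought libraries, each from 1 plant, after 80000 nuclei had been sorted per library. The labels of these libraries name internode 15, and the series' design text names a second internode as well. Bulk RNA from the stem was sequenced in 3 control and 3 drought libraries. Whether any plant served for both assays is not stated in the labels.

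A woody stem thickens through the vascular cambium, a layer of dividing cells that forms xylem towards the inside and phloem towards the outside. Cell types of the stem transcribe different sets of genes, so genes that share a cell type tend to be found in the same nuclei. Water deficit is known to slow cambial growth and to change transcription throughout the stem. Nuclear RNA holds much newly made RNA, whereas bulk RNA is mostly the processed RNA of the cytoplasm, so the 2 assays measure different pools. Genes come as IDs without names in the deposited files. No role is therefore given to any gene here, and the nuclei are called by the anchor and not by a cell type.

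Bulk libraries held 47900128 to 57594846 counts. The control nuclei libraries held 4346198 and 3633900 UMIs of genes, and the drought nuclei libraries 1930997 and 1994615, which is fewer than either control. Of 20406 barcodes, 16950 had at least 200 genes, and 168 barcode sequences occurred in 2 or more libraries. Barcodes with at least 200 genes were 4342 of 4439 and 5697 of 5698 in control libraries 1 and 2. In drought libraries 1 and 2 they were 3172 of 4203 and 3739 of 6066. Bulk drought library 2 stood apart from its group. Its chi-square per degree of freedom over genes was 135 against drought library 1 and 163 against drought library 3, whereas drought libraries 1 and 3 differed by 10.3. The main bulk counts below are given with and without it.

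The anchor was found in a small share of nuclei in every library. It had at least 1 UMI in 197 of 4342 nuclei of control library 1 (4.54%, 95% Wilson interval 3.96 to 5.20) and in 349 of 5697 nuclei of control library 2 (6.13%, 5.53 to 6.78). Under drought it was found in 103 of 3172 nuclei of library 1 (3.25%, 2.68 to 3.92) and in 60 of 3739 nuclei of library 2 (1.60%, 1.25 to 2.06). These intervals cover counting error only. Both drought libraries were below both controls, but nuclei were also shallower there, with median UMIs of the other nuclei at 739 and 510 in controls and 428 and 354 under drought.

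To remove the difference in depth, every nucleus was thinned to 250 UMIs, which left out 16 and 122 control nuclei and 217 and 479 drought nuclei as too shallow. The anchor was then found in 2.17% and 3.32% of control nuclei and in 1.96% and 1.20% of drought nuclei, with means of 2.75% ± 0.81 and 1.58% ± 0.54 (SD, n = 2 each). Both drought libraries stayed below both controls, but drought library 1 lay closer to control library 1 than the controls lay to each other. Thinned to 500 UMIs, control nuclei held the anchor at 2.52% and 4.70% and drought nuclei at 3.22% and 1.36%, so the groups overlapped (exact p = 0.67, two-sided). At 250 UMIs the log2 ratio of the means was -0.80, with p = 0.33 in a two-sided exact permutation test, which is the smallest p that 2 against 2 allows. Free RNA can give a UMI to a nucleus that does not transcribe the gene. Among nuclei with a UMI of another anchor, which mark other sets of nuclei, the anchor was found in 5.48% and 7.96% in controls and 3.47% and 2.14% under drought, at median UMIs of 978.5, 665, 540 and 451. These nuclei were deeper than the others, so their shares are not a depth-matched background. The share of nuclei with 1 or more UMI thus holds an unknown part of background and is not read as the share of nuclei that transcribe the anchor.

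Anchor-positive nuclei differed widely in how much RNA of the members they held. Their summed share of a nucleus's UMIs had a median of 2.53%, 2.49%, 3.24% and 6.61% in anchor-positive nuclei of control libraries 1 and 2 and drought libraries 1 and 2. In the other nuclei the median was 0.145%, 0.231%, 0.146% and 0%. Nuclei with a single anchor UMI had medians of only 0.341% to 0.645%, and those with at least 2 had 9.03% to 13.7%. Between 35.0% and 45.6% of anchor-positive nuclei had a member share below 1%. Since these nuclei chose the members, all of these shares describe the selection and are not tested.

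**Figure D1:**
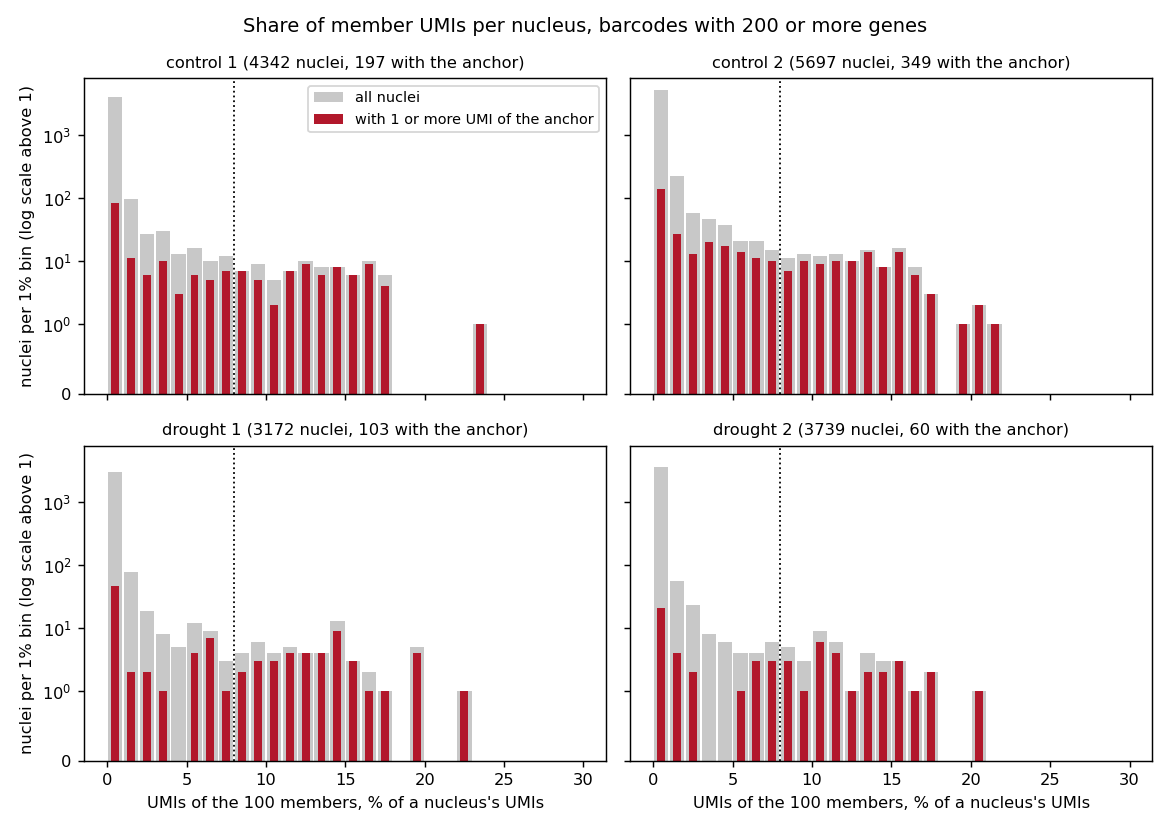
Nuclei per 1% bin of the summed share of the 100 members among a nucleus's UMIs (horizontal axis), in each of the 4 nuclei libraries, with the number of nuclei on an axis that is logarithmic above 1. Grey bars are all nuclei with at least 200 genes, red bars those with the anchor, and the dotted line marks 8%. Above it 68.4% to 84.1% of nuclei held the anchor, which describes the selection.

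A limit of 8% of UMIs, set after the distribution was seen, gave 77, 113, 52 and 38 member-rich nuclei in control libraries 1 and 2 and drought libraries 1 and 2. This was 1.77%, 1.98%, 1.64% and 1.02% of nuclei, a range of a score and not a cell type, with 38, 60, 22 and 18 nuclei lying between 6% and 10%. Thinned to 250 UMIs, the shares were 1.80%, 2.03%, 1.52% and 1.104%. The anchor was found in 83.1%, 84.1%, 75% and 68.4% of member-rich nuclei and in 3.12%, 4.55%, 2.05% and 0.919% of the others. A member-rich nucleus had a median of 41, 38, 35 and 27.5 members detected, against 1, 1, 1 and 0 elsewhere. Since the members were chosen by the anchor in these same nuclei, these values too describe the selection and are not tested. Member-rich nuclei contributed 33.5% to 44.5% of all member UMIs in a library, so most member UMIs came from nuclei outside this range.

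Among themselves, the members had ratios from 3.49 down to 1.58, with a median of 2.09. The 6 highest were PtXaAlbH.12G049300 at 3.49, PtXaAlbH.14G149700 at 3.47, PtXaAlbH.11G117700 at 3.42, PtXaAlbH.09G073100 at 3.32, PtXaAlbH.04G143600 at 3.26 and PtXaAlbH.09G093000 at 3.15. PtXaAlbH.12G049300 stood at 1150 CPM in anchor-positive nuclei and 57.1 CPM in the rest of the controls, and at 1835 and 49.2 CPM under drought. The last members inside the limit, PtXaAlbH.08G007600 and PtXaAlbH.08G044800, both had 1.58. The first genes outside it, PtXaAlbH.01G252000 and PtXaAlbH.12G077000, both had 1.56, so the end of the list is a matter of rank and not of a gap. UMIs behind a member in anchor-positive nuclei ran from 84 to 1181, with a median of 201.

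The ratios by library and treatment describe the selection, which used these 4 libraries and kept the lower ratio, and they are not tested. The ratio exceeded 1 in each of the 4 libraries for 98 members, and the lowest in any library was 0.43. The median ratio was 2.11 in controls and 2.65 under drought, and for 95 members the control ratio was the lower one that the rule used. For the other 6 anchors, the members' best ratio had a median of 0.08 and was negative for 40 members. It exceeded 1 for 3 members, with a highest value of 1.34. PtXaAlbH.03G005800 was the next best anchor for 48 members and PtXaAlbH.12G066100 for 27.

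**Figure D2:**
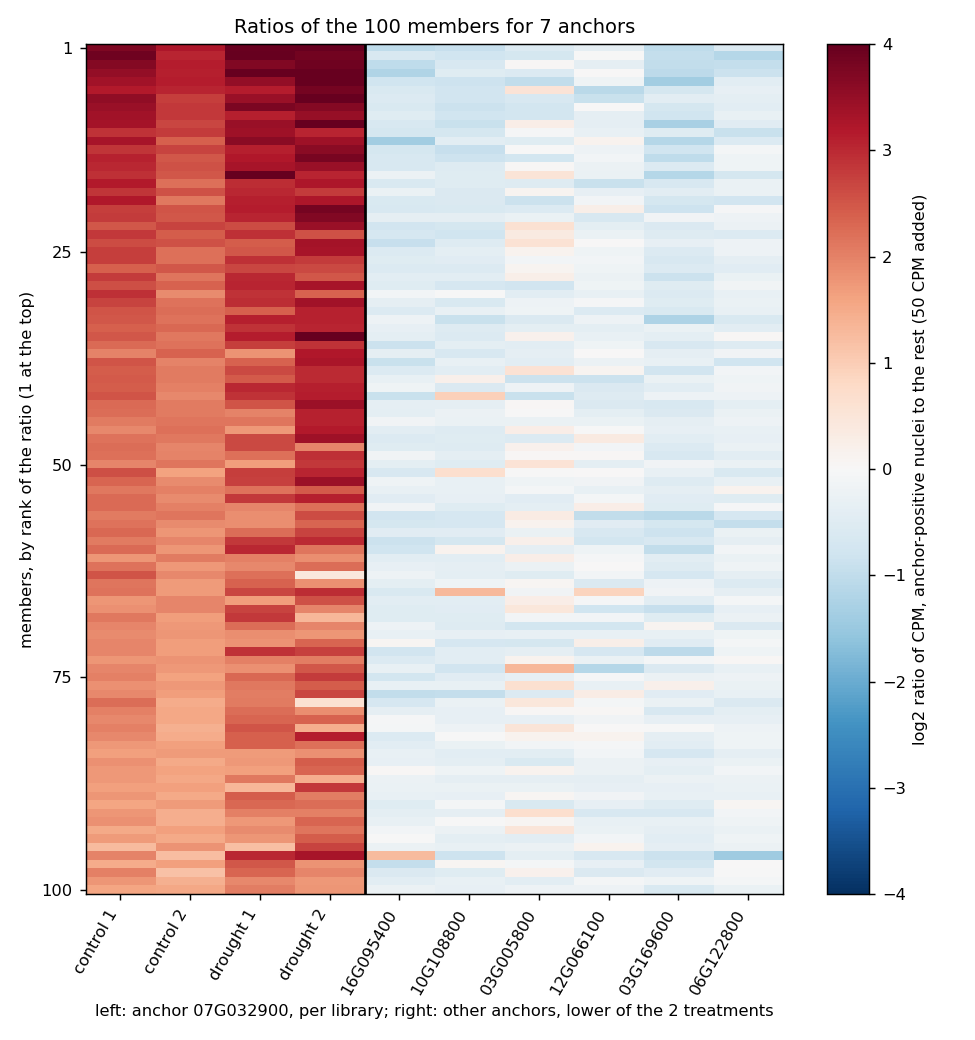
Log2 ratio of each member (rows, ordered by rank) in anchor-positive nuclei over the rest, for the anchor in each of the 4 nuclei libraries (left of the line) and for the 6 other anchors as the lower of the 2 treatments (right of the line). Colour gives the log2 ratio with 50 CPM added; columns left of the line are positive for every member, with a lowest value of 0.43, whereas those on the right are mostly near or below 0.

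The IDs carry a chromosome number, and members were spread over all 19 numbers, with 2 to 11 on each. Part of the list consisted of neighbours. 16 members fell into 5 runs in which consecutive members lay within 3 ID steps of each other. The longest, on chromosome 14, held PtXaAlbH.14G149400, PtXaAlbH.14G149600, PtXaAlbH.14G149700, PtXaAlbH.14G149800 and PtXaAlbH.14G149900. A run on chromosome 7 held PtXaAlbH.07G094500, PtXaAlbH.07G094700, PtXaAlbH.07G094800 and PtXaAlbH.07G095100. How reads of near-identical copies were assigned is not given in the sources used here, so neighbours that are copies of each other may share reads, and their values are uncertain and not independent.

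With all bulk libraries in the fit, the anchor itself did not differ beyond the replicate spread in bulk. It had 31.3, 32.9 and 28.0 CPM in control libraries 1 to 3 and 22.9, 44.4 and 21.8 CPM in drought libraries 1 to 3. Drought library 2 was above every control and the other drought libraries were below every control, so the groups overlapped. The log2 fold change of drought over control was -0.05 ± 0.27 (SE) with an adjusted p of 0.896 in edgeR's quasi-likelihood test, Benjamini-Hochberg adjusted over all genes. Over the alternatives run in edgeR and DESeq2, including each bulk library left out, this bulk change ran from -0.46 to 0.13. Its adjusted p ran from 0.00211 to 0.982, so the bulk result depended on the libraries and settings used. In nuclei the anchor had 118 and 177 CPM in controls and 96.4 and 60.3 CPM under drought, without overlap, at a log2 fold change of -0.91 ± 0.27 (SE) and an adjusted p of 0.0663. Over the alternatives run, this nuclei change ran from -1.29 to -0.59, and whether it passed 0.05 also depended on the libraries and settings used. The difference between the drought effects of the 2 assays was -0.95 ± 0.46 (SE, log2, nuclei minus bulk), with an adjusted p of 0.222.

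In bulk stem RNA, more members were higher than lower under drought. Of the 100 members, 46 were higher and 10 lower at a false discovery rate (FDR) below 0.05, with 27.1% of the 26448 tested genes higher, 27.1% lower and thus 54.2% called in either direction. All 100 members were tested. The median member log2 fold change was 0.56, beside 0.01 for all genes tested, and members ranged from -1.0996 to 1.55. The drought libraries lay above every control for 53 members and below every control for 14, with backgrounds of 31.7% and 32.8% of genes. Without drought library 2 these counts were 55 and 24, with backgrounds of 39.3% and 39.7%. In bulk samples, a change in the share of the cells that make these RNAs and a change in RNA per cell cannot be told apart.

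PtXaAlbH.01G101700 and PtXaAlbH.02G070500 had the largest bulk rises. PtXaAlbH.01G101700 went from 14.3, 17.7 and 16.0 CPM in control libraries 1 to 3 to 48.6, 40.4 and 52.0 CPM in drought libraries 1 to 3, which is 1.55 ± 0.13 on the log2 scale (SE, adjusted p 0.00037). PtXaAlbH.02G070500 went from 33.1, 32.2 and 30.8 CPM to 91.0, 82.5 and 90.5 CPM, or 1.46 ± 0.08 on that scale (SE, adjusted p 0.00014). For both, all drought libraries exceeded all controls by a wide margin and drought library 2 was the lowest of the drought libraries. Each remained past the threshold in edgeR and DESeq2 under all alternatives run.

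The 6 members with the highest ratios did not all move. PtXaAlbH.12G049300 had 38.4, 45.5 and 31.2 CPM in controls and 58.2, 74.8 and 53.3 CPM under drought, without overlap, and rose by 0.69 ± 0.18 (log2, SE, adjusted p 0.0164, and up to 0.0548 with a library left out). PtXaAlbH.14G149700 had 8.60, 9.54 and 7.01 CPM and then 16.0, 18.1 and 16.1 CPM, so that it rose by 1.00 ± 0.14 (log2, SE, adjusted p 0.00178). PtXaAlbH.09G073100 had 31.3, 35.6 and 30.96 CPM and then 52.1, 64.5 and 46.2 CPM, so that it rose by 0.73 ± 0.14 (log2, SE, adjusted p 0.00512). Drought library 2 was the highest for each of these 3 genes, and without it their log2 fold changes were 0.54, 0.93 and 0.59, with adjusted p-values of 0.00765, 0.000277 and 0.000476. The other 3 did not pass the test, with log2 fold changes of 0.27 for PtXaAlbH.11G117700, 0.59 for PtXaAlbH.04G143600 and 0.29 for PtXaAlbH.09G093000, and adjusted p-values of 0.394, 0.0782 and 0.0551. Without drought library 2 the log2 fold changes of these 3 were -0.05, 0.28 and 0.19, with adjusted p-values of 0.766, 0.0918 and 0.0641.

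**Figure D3:**
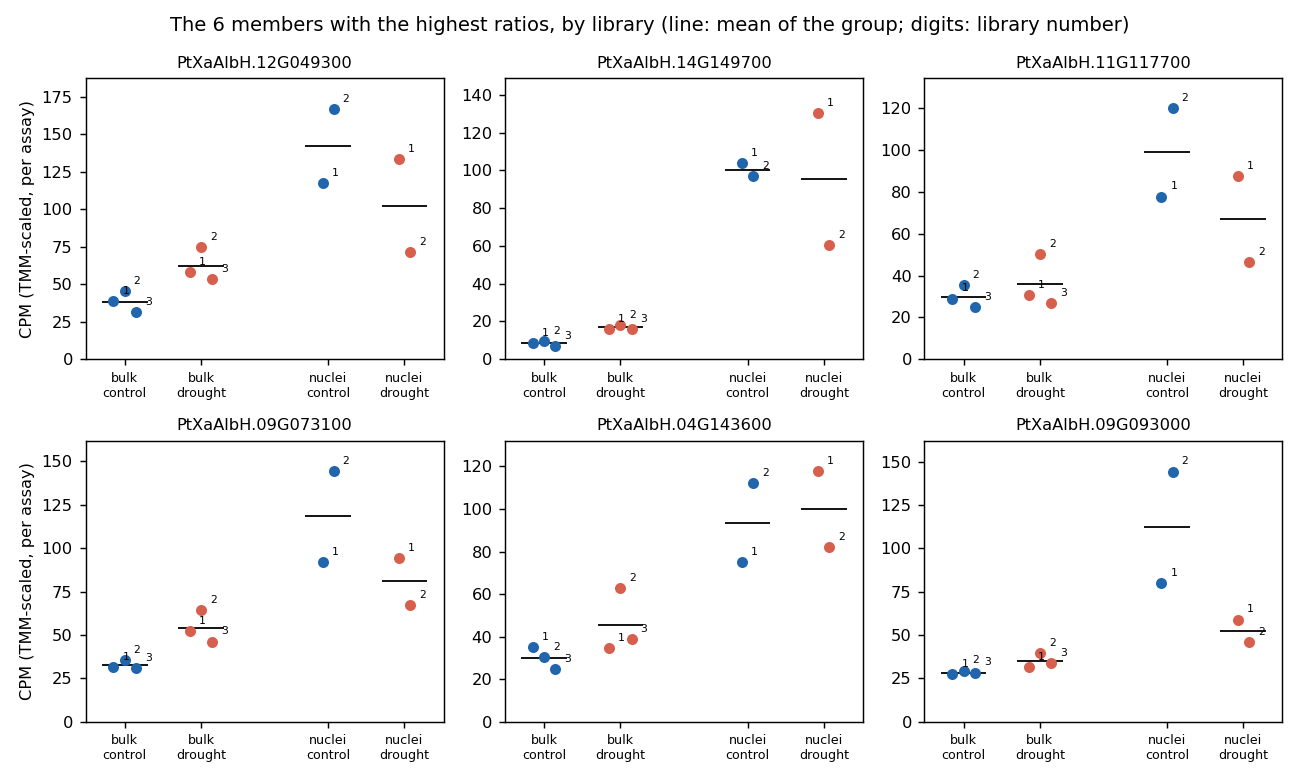
CPM of the 6 members with the highest ratios in the 6 bulk and 4 nuclei libraries, with scaling done within each assay so that levels are not comparable between assays. Points are libraries with their number, and lines are group means; drought library 2 is the highest bulk library in all 6 panels and the lowest nuclei library in 5 of 6.

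The largest bulk falls were those of PtXaAlbH.09G006700 and PtXaAlbH.17G055900. PtXaAlbH.09G006700 had 61.3, 48.2 and 59.95 CPM in controls and 21.0, 37.6 and 20.5 CPM under drought, and fell by 1.0996 ± 0.25 on the log2 scale (SE, adjusted p 0.0102). PtXaAlbH.17G055900 had 103, 100.3 and 99.2 CPM and then 51.1, 67.9 and 54.3 CPM, and fell by 0.81 ± 0.12 (SE, log2, adjusted p 0.0021). In both, no drought library reached a control, and drought library 2 was the nearest to the controls. By counts per gene, not corrected for length, the most abundant members in bulk were PtXaAlbH.11G069400, PtXaAlbH.10G145500 and PtXaAlbH.02G080900. The first fell by 0.47 ± 0.10 (SE, log2, adjusted p 0.00725). The other two had log2 fold changes of -0.53 and -0.23, with adjusted p-values of 0.0967 and 0.293. Without drought library 2 these most abundant members had log2 fold changes of -0.45, -0.87 and -0.43, in the order named. Their adjusted p-values were then 0.00279, 1.79e-05 and 0.00551 by edgeR.

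Counts along the list are read beside 27.1% of all genes higher and 27.1% lower. Of ranks 1 to 50, 28 were higher and 1 lower in bulk, with a median log2 fold change of 0.63. Of ranks 51 to 100, 18 were higher and 9 lower, with a median of 0.32. Without drought library 2, when 32.8% of genes were higher and 33.6% lower, ranks 1 to 50 had 27 higher and 7 lower, and ranks 51 to 100 had 20 higher and 15 lower. By next best anchor, 24 of the 48 members next to PtXaAlbH.03G005800 were higher and 0 lower, whereas 2 of the 7 next to PtXaAlbH.10G108800 were higher and 4 lower. Without drought library 2 these counts were 26 and 8 for the first and 2 and 4 for the second. These splits are descriptions, and the differences between them were not tested.

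In 2 of the 5 runs of neighbouring genes most members rose in bulk. All 4 members of the chromosome 7 run were higher in bulk, by 0.99 to 1.20 on the log2 scale. In PtXaAlbH.07G094800 the controls had 25.8, 37.2 and 24.4 CPM and the drought libraries 62.3, 72.7 and 65.5 CPM, with no overlap and an adjusted p of 0.00187. In the chromosome 14 run 4 of 5 members were higher, with log2 fold changes of 0.30 to 1.00 over the run, and the one that did not pass was PtXaAlbH.14G149400 (0.30 ± 0.19 SE, adjusted p 0.207). None of the 7 members of the other 3 runs passed in bulk. Without drought library 2 the 8 members that rose in the chromosome 7 and 14 runs had log2 fold changes of 0.55 to 1.13 and still passed. Over all alternatives run in edgeR and DESeq2, the bulk adjusted p ran up to 0.0584 for PtXaAlbH.14G149600 and 0.0745 for PtXaAlbH.14G149900. It stayed below 0.05 for the rest of these 8.

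A single bulk library was the highest for most members. Drought library 2 was the highest of the 6 libraries for 67 members, beside 15.4% of all genes tested. Drought libraries 1 and 3 were the highest for 3 and 8 members, beside 16.1% and 21.5% of genes. Relative to the control mean, the median member stood at 0.32, 0.78 and 0.36 on the log2 scale in drought libraries 1 to 3, while the median of all genes was within 0.02 of 0. The members' summed level was 2375, 2511 and 2313 CPM in controls and 2579, 3364 and 2642 CPM under drought, without overlap. Among controls, library 3 was the lowest of all 6 libraries for 48 members, beside 14.5% of genes.

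Without drought library 2, 47 members were higher and 22 lower, and the median fold change was 0.33. The share of all genes called also rose, to 32.8% higher and 33.6% lower. The lower members were thus 22 beside 33.6% of genes, against 10 beside 27.1% with all libraries. With libraries scaled by their total alone, 40 members were higher and 14 lower, beside 21.9% and 32.4% of genes. That scaling moved the median of all genes to -0.12 and the higher share of all calls from 50.1% to 40.4%. When a change of at least 2-fold was also required, 13 members were higher and 1 was lower. The share of all genes past that limit is not given here, so these counts have no background.

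**Figure D4:**
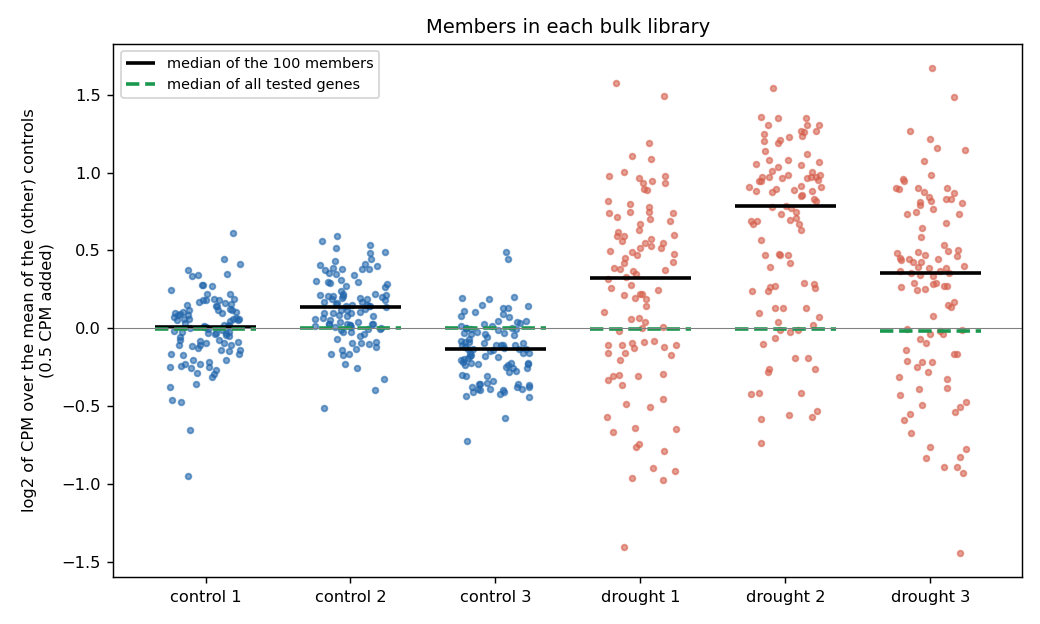
Log2 of each member's CPM in a bulk library over the mean of the controls, leaving the library itself out of the mean for controls, with 0.5 CPM added. Points are members, black lines their median (0.32, 0.78 and 0.36 in drought libraries 1 to 3) and dashed green lines the median of all tested genes, which stays near 0.

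In whole nuclei libraries, summed over all barcodes, the members went the other way. These sums include the barcodes with fewer than 200 genes, which lay mostly in the drought libraries. Of the 100 members, all tested, 0 were higher and 11 lower at FDR below 0.05 by edgeR, with 3.63% of the 20768 tested genes higher, 5.21% lower and 8.84% called in either direction. At an unadjusted p below 0.05, 2 were higher and 37 lower, beside 5118 of the 20768 genes in either direction. DESeq2 called 0 higher and 9 lower, beside 1.88% and 2.93% of genes. The median log2 fold change was -0.60, beside 0.01 for all genes, and 90 members had a negative value. Drought libraries lay below both controls for 44 members and above both for 4, with backgrounds of 27.6% and 27.4%. The rule compared nuclei within a treatment and not the treatments, but it used these same libraries.

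PtXaAlbH.05G027900 and PtXaAlbH.01G116300 had the largest falls in nuclei. PtXaAlbH.05G027900 had 98.97 and 61.7 CPM in control libraries 1 and 2 and 27.7 and 23.1 CPM in drought libraries 1 and 2, and fell by 1.66 ± 0.28 (SE, log2, adjusted p 0.00886). PtXaAlbH.01G116300 had 27.8 and 42.7 CPM and then 13.8 and 9.55 CPM, and fell by 1.59 ± 0.34 (SE, log2, adjusted p 0.0208). Neither pair of groups overlapped. Over the alternatives run, including each library left out, the adjusted p ran up to 0.0454 for the first and 0.0937 for the second.

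Among the 6 members with the highest ratios, PtXaAlbH.09G093000 was lower in nuclei, with 79.9 and 144 CPM in controls and 59.0 and 45.8 CPM under drought, and a change of -1.096 ± 0.29 (log2, SE, adjusted p 0.0438). Its adjusted p ran up to 0.295 over the alternatives. The other 5 had log2 fold changes of -0.56 to 0.10 and none passed the test. For PtXaAlbH.14G149700, control libraries 1 and 2 at 104 and 96.9 CPM lay between drought library 1 at 130 and drought library 2 at 60.3.

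Here too single libraries stood out. Drought library 2 was the lowest of the 4 for 85 members, beside 28.7% of genes, and control library 2 was the highest for 76, beside 27.2%. The members' summed level was 4802 and 6575 CPM in controls and 4843 and 3131 CPM under drought, so the groups overlapped. Without drought library 2 only 2 members were lower, beside 2.27% of genes, and without control library 2 only 4, beside 4.03%. Without control library 1, 35 were lower, beside 6.29%, and without drought library 1, 17, beside 3.12%. Leaving one library out of a group assumes that the lone library varies like those of the other group. With barcodes of at least 200 genes only, 6 members were lower, beside 4.14% of genes. Their median log2 fold change in nuclei was then -0.52, taken over all members, beside 0.004 for all genes. With no filter on low counts 23 members were lower, beside 5.91%. The anchor-positive share was also lowest in drought library 2 and highest in control library 2, at 1.60% and 6.13%; the part of this share in the members' level was not tested.

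Within anchor-positive nuclei, no member passed the test between treatments. By edgeR 0 of 100 tested members were called, with 0.701% of the 5707 tested genes called (0.473% higher and 0.228% lower), and DESeq2 called 0 as well. At an unadjusted p below 0.05, 14 members were higher and 0 lower, beside 718 of the 5707 genes in either direction. The median log2 fold change was 0.37, beside -0.06 for all genes tested, and 80 members had a positive value. Drought lay above both controls for 48 members and below both for 2, with backgrounds of 21.1% and 22.4%. The rule kept genes that were high in these nuclei in both treatments, so it limits how far members can differ here. Its ratios used the same UMIs of these nuclei, so the members' counts and medians here describe the selection. Nothing is read from them. Of these nuclei, 43.1%, 40.7%, 45.6% and 35.0% in control libraries 1 and 2 and drought libraries 1 and 2 had a member share below 1%. When anchor-positive nuclei were called after thinning to matched depth, the members' median was 0.03, beside -0.03 for all genes, and 0 members were called. When they were called by at least 2 UMIs, an alternative chosen after seeing the data, the median was 0.14 and 0 members were called.

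The difference of the drought effect between anchor-positive nuclei and the rest is, up to scaling, the ratio under drought minus the ratio in controls, which are the values that the rule used. It is therefore given as a description, and nothing is read from its test. The interaction passed FDR 0.05 for 1 member, PtXaAlbH.11G069400, of 18349 genes fitted (0.00545%), and for none when control library 1, control library 2 or drought library 1 was left out. In anchor-positive nuclei this gene had 1041 and 858 CPM in controls and 1498 and 1588 CPM under drought. In the pooled rest it had 169 CPM in controls and 78.9 CPM under drought. Its ratio was 1.61 in controls and 3.12 under drought, and the fitted difference was 1.57 ± 0.33 (SE, log2). Across all members the median difference was 0.42, beside -0.38 for all genes, and without control library 2 it was 0.05.

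The drought effects of the 2 assays were then set against each other in 1 model of the 10 libraries. The effect differed for 33 of 100 members, each more negative in nuclei than in bulk, and 4.87% of the 27746 tested genes were called in that direction, 2.34% in the other and 7.21% in either. The median difference was -1.11 on the log2 scale, beside -0.09 for all genes. Of these 33 members, 25 were called higher in bulk, 9 were called lower in nuclei and 2 were called in neither assay. In this model the replicate spread of a gene is estimated once over both assays, although the assays may vary to unlike extents, and its p-values carry that assumption.

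The signs were opposite for most members. 64 members had a positive fold change in bulk and a negative one in nuclei, beside 16.3% of the 20588 genes tested in both assays. 10 members were positive in both assays, 26 negative in both and 0 negative in bulk and positive in nuclei. As for calls in both assays, 3 members were called higher in bulk and also lower in nuclei. PtXaAlbH.03G151700 and PtXaAlbH.11G069400 were called lower in both. Shares of all genes for these other signs and for calls in both assays are not given here, so these counts have no background. PtXaAlbH.03G151700 had 67.2, 50.97 and 67.3 CPM in bulk controls and 41.4, 36.8 and 49.5 CPM under drought, and 146 and 141 CPM in control nuclei and 88.7 and 54.3 CPM under drought. Neither assay's groups overlapped for it, and its log2 fold changes were -0.54 in bulk and -1.01 in nuclei, with adjusted p-values of 0.0245 and 0.0294. Over the alternatives run, its adjusted p ran up to 0.0880 in bulk and 0.126 in nuclei. That of PtXaAlbH.11G069400 ran up to 0.0366 in bulk and 0.160 in nuclei.

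The largest differences were those of PtXaAlbH.07G094800 and PtXaAlbH.07G095100, neighbours in the chromosome 7 run. In nuclei PtXaAlbH.07G094800 had 42.2 and 72.9 CPM in controls and 28.7 and 17.1 CPM under drought, opposite to its rise in bulk. Its difference was -2.61 ± 0.41 (SE, log2, nuclei minus bulk, adjusted p 0.0086). PtXaAlbH.07G095100 had 18.0, 23.4 and 15.2 CPM in bulk controls and 36.5, 46.2 and 37.8 CPM in bulk drought libraries. In nuclei it had 29.9 and 53.9 CPM in controls and 22.0 and 15.1 CPM under drought, and its difference was -2.35 ± 0.41 (SE, adjusted p 0.0129). For both genes every bulk drought library was above the bulk controls, and both drought nuclei libraries were below the control nuclei. Over the alternatives run, their adjusted p-values ran up to 0.0438 and 0.0482.

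**Figure D5:**
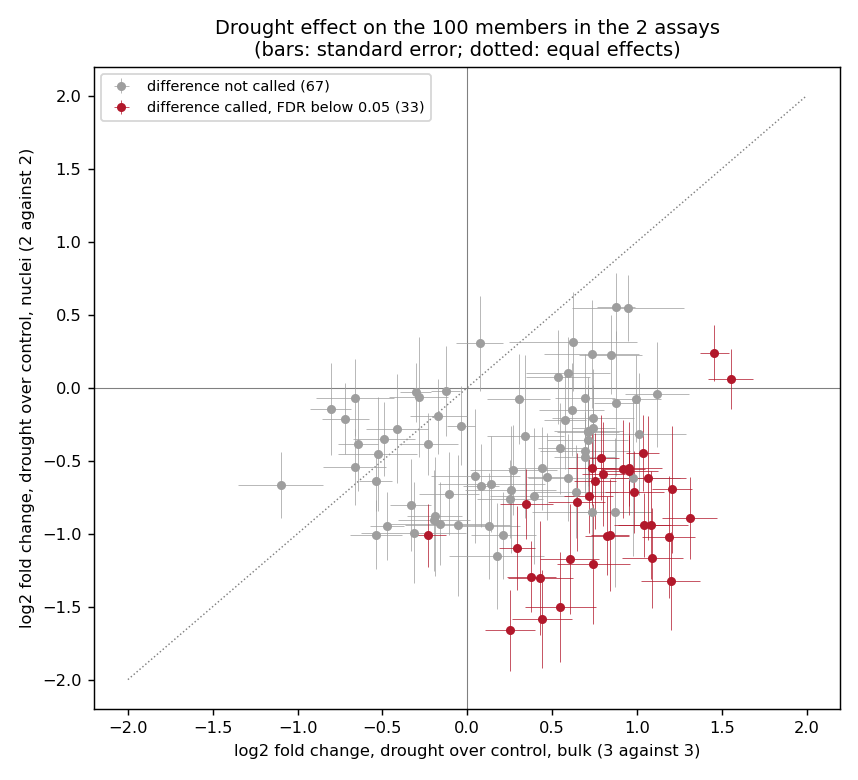
Log2 fold change of drought over control for the 100 members in bulk (horizontal axis, 3 against 3 libraries) and in nuclei (vertical axis, 2 against 2), with standard errors as bars and a dotted line of equal effects. Red points are the 33 members whose difference passed FDR 0.05 and grey points the other 67; 64 points lie in the lower right of the plot, positive in bulk and negative in nuclei.

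The count of differing members depended on the libraries, as did the share of all genes called in the same direction. It was 13 without drought nuclei library 2 (3.42% of genes), 16 without control nuclei library 2 (3.39%), 31 without control nuclei library 1 (1.74%) and 33 without drought nuclei library 1 (2.24%). Without control bulk libraries 1, 2 and 3 it was 16 (1.91%), 19 (2.42%) and 14 (1.70%). Without drought bulk libraries 1, 2 and 3 it was 21 (2.02%), 43 (12.4%) and 19 (2.35%). With libraries scaled by their total alone it was 21 (2.95%). The median of all genes then moved from -0.09 to 0.15 and the higher share of all calls from 32.5% to 64.3%, whereas every called member was still more negative in nuclei.

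Lists made by the same rule for the 2 anchors most often next best gave other counts. They are read beside 27.1% of all genes higher and 27.1% lower in bulk, and 3.63% and 5.21% in nuclei. For PtXaAlbH.03G005800, 38 of 100 genes were higher and 22 lower in bulk, with a median log2 fold change of 0.12, and 10 were higher and 9 lower in nuclei. For PtXaAlbH.12G066100, 12 were higher and 43 lower in bulk, with a median of -0.30, and 6 were higher and 3 lower in nuclei. Bulk drought library 2 was the highest library for 19 and 7 genes of these lists, against 67 members and beside 15.4% of all genes. The counts of these lists without that library are not given here. The lists come from the same libraries, and the differences between them were not tested.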

How the data were processed

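The deposited bulk table holds read counts per gene, and the deposited nuclei matrices hold UMI counts per feature and barcode, both whole numbers that the authors had not normalized, judging by the values. Alignment used HISAT2, per the submitters' processing notes; not given in the sources used here are the counting software, the genome build and annotation, the use of strand and the choice of barcodes. 25 features that are not genes, which took 0.0574% to 0.478% of the UMIs of a library, were left out of library sizes and tests. Columns not used numbered 0. Doublets were not treated.

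In R 4.3.3, the quasi-likelihood F test of edgeR 4.0.16 was applied to the counts after TMM scaling and filterByExpr, with Benjamini-Hochberg adjustment over all genes tested and a false discovery rate of 0.05. Standard errors are the log2 fold change over the square root of F, and CPM values are TMM-scaled within an assay, except in the ratios of the rule and in the pooled rest, which use plain CPM. UMIs were summed per library, so the library is the replicate. The nuclei libraries came from 1 plant each and the bulk libraries are biological replicates, per the labels and the series' design text. No pair of libraries of the same group agreed within sampling noise (chi-square per degree of freedom 4.56 or more). Ratios, thinning and permutation tests used numpy 2.4.6 and scipy 1.17.1, and the fits were tested on simulated data. Alternatives were DESeq2 1.42.0, other scaling, no filter, thinning, replicate blocks and each library left out.

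The members, lists and tests were chosen with earlier results of these data known. Members are named when among the 6 highest ratios, at the limit of the list, among the 3 most abundant in bulk, in a run of neighbouring IDs, called in both assays in the same direction, or with the 2 largest changes of a comparison in each direction among called members whose groups do not overlap.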

Additional observations from a re-analysis of the deposited data

Results flagged for a closer look

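The drought effect differed between bulk and nuclei for 33 members by the test of that difference itself, each more negative in nuclei. Among the members named in the text these were PtXaAlbH.09G073100 at -1.37, PtXaAlbH.09G093000 at -1.48, PtXaAlbH.01G101700 at -1.58, PtXaAlbH.02G070500 at -1.31, PtXaAlbH.05G027900 at -2.01 and PtXaAlbH.01G116300 at -2.12, all as log2 fold change in nuclei minus that in bulk. The run on chromosome 7 had -1.79 for PtXaAlbH.07G094500, -2.11 for PtXaAlbH.07G094700, -2.61 for PtXaAlbH.07G094800 and -2.35 for PtXaAlbH.07G095100. In other runs PtXaAlbH.02G043800 had -1.23, PtXaAlbH.17G031100 had -1.82 and PtXaAlbH.17G031400 had -2.14. Over all alternatives run, the difference stayed past the threshold for PtXaAlbH.01G101700, PtXaAlbH.02G070500, PtXaAlbH.05G027900, PtXaAlbH.07G094800 and PtXaAlbH.07G095100. For each of the other members listed here it was lost in at least 1 alternative. Between anchor-positive nuclei and the rest, 1 member passed, PtXaAlbH.11G069400, with a fitted difference of 1.57 on the log2 scale. The rule had used these values, and the call was lost without control nuclei library 1, control nuclei library 2 or drought nuclei library 1, so it is a description. What produces these differences was not tested.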

How the results depend on the processing

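Requiring a 2-fold change left 14 members in bulk (13 higher, 1 lower), counts without a background share. With 1 library left out, 6 to 22 members were lower in bulk, 2 to 35 were called in nuclei, 0 to 1 in anchor-positive nuclei, 0 to 1 differed between these and the rest, and 13 to 43 differed between the assays. In nuclei, 6 were called with barcodes of 200 or more genes (7.01% of genes) and 23 without the filter on low counts (10%). Thinning the anchor-positive sums to the shallowest gave 1 call, with 64 members tested (6.15% of genes), and calling these nuclei after thinning gave 0 (0.671%). Without scaling beyond library size 21 members differed between the assays, beside 2.95% of genes more negative in nuclei. Same-numbered bulk libraries did not deviate together (correlations -0.0055 to 0.029). With the replicate number as a block, 59 members were called in bulk (48.3% of genes), 10 in nuclei (8.05%) and 0 in anchor-positive nuclei (0.806%). With that block 13 members differed between the assays (1.13% of all genes were called more negative in nuclei, against 4.87% without the block). In nuclei the same-number correlation was -0.136. A crossed replicate block, chosen after seeing the data, called 26 members in nuclei (13.4% of genes) and 0 in anchor-positive nuclei (0.421%). Apart from the dependence on fewer samples or genes, the cause of these changes was not tested. Other forms of the rule kept 83 (thinned to 250 UMIs) to 100 of the members. The named genes' values gave 1064 alternatives on the same side of the threshold in the same direction, 77 weaker, 43 stronger and 0 reversed. Depth is one limit of the comparison within anchor-positive nuclei, where the drought sums held 78228 and 31005 UMIs against 244955 and 330427 in controls.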
